A study of Mus musculus with 209 samples.

Results

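The Smad and Smurf genes were followed through maternal Nlrp14 knockout and wild-type mouse oocytes, 2-cell embryos and wild-type epiblasts. The 9 genes Smad1 to Smad7, Smurf1 and Smurf2 were taken by symbol from the 24450 gene rows of the count tables, and all 9 were present. They were chosen by role and by a measured value, the level of Smad7, which was among the lowest genes in knockout 2-cell samples. Every gene of the knockout against wild-type 2-cell comparison is therefore given as a description, with no test.

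Smad proteins carry signals of the TGF-beta superfamily from receptors at the cell surface to the nucleus. Smad1 and Smad5 are phosphorylated by bone morphogenetic protein (BMP) receptors, Smad2 and Smad3 by TGF-beta, activin and Nodal receptors, and both kinds act with the shared partner Smad4. Smad6 and Smad7 are inhibitory Smads that are themselves induced by the pathway, and Smurf1 and Smurf2 are ubiquitin ligases that bind Smads and, through the inhibitory Smads, receptors. Oocytes secrete the superfamily ligands Gdf9 and Bmp15, and in the epiblast of the early embryo Nodal and BMP signals pattern the axis and prepare gastrulation.

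RNA was measured in 54 of the 209 samples. These were 9 knockout (KO) and 8 wild-type (WT) 2-cell samples collected 42 to 43 h after hCG, 19 KO and 14 WT metaphase II (MII) oocyte samples collected 14 to 15 h after hCG, and 2 IVC and 2 E6.5 epiblast samples. The KO groups carried a genotype that the labels write as N14 maternal KO. N14 was taken to mean Nlrp14, an NLRP family gene of the oocyte, and a maternal knockout lacks the gene in the mother, so that the egg is made without it. Females of all single-cell groups were superovulated C57BL/6 mice of 6 to 8 weeks, the males were C57BL/6 or PWK, and the 2-cell RNA samples carry no label for the strain of the male. The epiblasts were WT C57BL/6 by C57BL/6, and the E6.5 group carries the further label ND, whose meaning is not given in the sources used here. The part of Nlrp14 that was deleted is not given in the sources used here either. No label names the animal behind an oocyte or 2-cell sample, so each of those groups was treated as 1 sample of libraries. Levels are gene counts scaled to a common library total (CPM), and group values are pooled CPM. Intervals are exact 95% intervals of counting error only and leave out the spread between libraries. Reads carried no molecular identifiers, so even the counting error may be larger than these intervals show.

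Single-cell libraries held 2704050 to 15007301 gene counts, and no pair of libraries held identical values. Nlrp14 had 29.4 CPM in the lowest, 67.3 in the median and 86.4 in the highest of the KO 2-cell libraries, against 106, 287 and 477 in WT 2-cell libraries. In oocytes it had 0.643, 37.1 and 73.2 CPM in KO libraries, against 225, 407 and 3307 in WT libraries. Neither pair of groups overlapped, so the genotype labels fit the transcript at both stages. The 8 oocyte markers were at 10 CPM or more in both oocyte pools, and 7 of 8 (KO) and 8 of 8 (WT) 2-cell markers were at 10 CPM or more in the 2-cell pools against 0 of 8 in each oocyte pool; of 7 cumulus cell markers, at most 1 reached 10 CPM in any pool. All 17 2-cell libraries held the ERCC spike-in, but the oocytes fell into 3 library sets: 7 KO and 10 WT with the spike-in, 10 KO and 3 WT without it and with under 1% of counts on the ribosomal RNA gene Rn45s (low-rRNA set), and 2 KO and 1 WT others.

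WT 2-cell replicate 8 stood apart from the other 7 WT libraries. Its spike-in share was 0.0583% of counts (others at least 0.101%), its paternal share of allele counts was 4.00% (others at least 9.03%), and its summed oocyte markers were the highest of WT at 5594 CPM. It also had the lowest Nlrp14 of the WT 2-cell libraries, at 106 CPM. Over all 2-cell libraries the summed oocyte markers were 3543 to 18612 CPM (median 7971) in KO and 2664 to 5594 CPM (median 3358) in WT, and the summed 2-cell markers were 223 to 2766 CPM (median 843) in KO and 804 to 1885 CPM (median 1597) in WT. These shifts moved with every KO against WT 2-cell value below, and their part in those values was not tested.

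RefSeq promoters of GRCm38.p6, 250 bases before to 50 bases after each annotated start, were matched for 6 of the 9 genes. Smad2, Smad4 and Smad7 had no matched promoter, so whether theirs hold the motifs below was not looked at. The Smad6 promoter is shown because it holds GTCTAGAC, the palindrome known as a Smad-binding element, while no other matched promoter of the family does. It lies at chr9:64022010-64022309 on the minus strand, and the capitals mark that element, which begins 4 bases before the annotated start.
Smad6 promoter: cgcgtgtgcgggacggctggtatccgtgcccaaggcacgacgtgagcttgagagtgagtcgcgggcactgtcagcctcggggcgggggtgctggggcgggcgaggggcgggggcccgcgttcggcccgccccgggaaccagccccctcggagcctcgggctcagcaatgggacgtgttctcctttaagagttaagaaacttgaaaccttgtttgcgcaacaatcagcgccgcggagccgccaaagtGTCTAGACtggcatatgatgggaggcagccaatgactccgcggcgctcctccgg
Of 32851 promoters of that length, 70 (0.213%) hold GTCTAGAC, which equals its own reverse complement. GGCGCC, a BMP-type Smad motif that is also its own reverse complement, was in 3898 promoters (11.9%), with 2 matches in the Smurf2 promoter and 1 in each of 2 of the 3 Smad5 promoters. The 8 matched promoters held 25 to 49 CpG, against a median of 7 over all promoters. These letters are a description and do not show binding.

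In 2-cell embryos the largest difference among the 9 genes was in Smad7, which was 50.0-fold lower in KO pools, with 1.04 CPM in KO and 52.2 CPM in WT. Of the 8 genes with at least 10 CPM in either pool, 1 (Smad7) was at least 2-fold lower, against 31.6% of the 8416 genes at that level, and 0 were at least 2-fold higher, against 5.96%. Of those 8 genes, 6 were at 10 CPM or more in both pools, while Smad7 reached it in WT alone and Smurf1 in KO alone, so a difference in these 2 is in part set by the filter. The median log2 ratio of KO over WT was 0.04 for those 8 and -0.35 for all genes, because more genes were lower than higher as CPM. Scaling by TMM moved the median of all genes by 0.41 and scaling by DESeq2 size factors moved it by 0.32. The ratios of Smad1 and Smurf2 are therefore also given relative to the median of all genes. Smad2 and Smad3, whose ratios were below 0 as CPM, lay above that median, as did Smad4, Smad5 and Smurf1. Smad7 lay below it.

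Smad1, a BMP receptor Smad, had 20.2 CPM in the lowest, 40.4 in the median and 50.9 in the highest of the 9 KO 2-cell libraries, against 8.18, 31.1 and 35.9 CPM in the 8 WT libraries. Of the 9 KO libraries, 7 lay above every WT library and the other 2 below the WT median, so the groups overlapped. The pooled log2 ratio was 0.41 (0.31 to 0.51), and 0.76 relative to the median of all genes. Smad5, the other BMP receptor Smad measured here, had 15.1, 36.6 and 50.8 CPM in KO libraries, against 7.25, 16.8 and 32.05 CPM in WT libraries. Again 7 of 9 KO libraries were above the highest WT library. Its log2 ratio of 0.95 (0.83 to 1.06) missed the 2-fold line, but passed it without KO replicate 8, WT replicate 4 or WT replicate 8, and was 1.31 under TMM scaling.

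Smad2, which carries activin and Nodal signals, had 40.0, 56.1 and 66.8 CPM in KO libraries, against 28.5, 75.6 and 146 CPM in WT libraries. All 9 KO libraries were below the WT median, and all were inside the WT range. The log2 ratio was -0.23 (-0.31 to -0.16) as CPM but 0.13 under TMM scaling, so its direction depended on the scale. Smad3, the other Smad of that branch, had 22.3, 39.2 and 71.7 CPM in KO libraries, against 16.9, 43.3 and 63.9 CPM in WT libraries. Its log2 ratio of -0.16 (-0.25 to -0.07) also changed sign, with 0.20 under TMM scaling and 0.07 without WT replicate 8. Smad4, the common partner, had 25.3, 41.1 and 81.0 CPM in KO libraries, against 0.193, 27.6 and 92.0 CPM in WT libraries. The lowest WT value, in replicate 3, was 1 count, and the log2 ratio was 0.24 (0.15 to 0.33).

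Smad7, the inhibitory Smad that blocks receptor signalling of both branches, had 0, 1.01 and 5.18 CPM in KO 2-cell libraries, against 5.82, 61.0 and 98.7 CPM in WT libraries. All 9 KO libraries were below all 8 WT libraries, on 65 counts in KO and 2235 counts in WT. Each of the other 8 genes overlapped between the groups, and the share of all genes without overlap is not given here. Smad7 was chosen by its low level in KO, so its separation is in part set by that choice. The lowest WT value belonged to replicate 8 and the next was 36.6 CPM; the highest KO value belonged to replicate 3 and the next was 1.33 CPM. KO replicate 3 also had the highest summed 2-cell markers (2766 CPM), paternal share (8.68%) and spike-in share (0.0957%) of the KO libraries. The log2 ratio was -5.64 (-6.02 to -5.29), ranged from -6.00 to -5.43 as each library was left out, and stood at rank 16 from the lowest of 8416 genes. Smad6, the inhibitory Smad that acts mainly on BMP signals, was near the detection floor: 16 counts in KO, with 5 of 9 libraries at 0, and 38 counts in WT, with 1 of 8 at 0. Its log2 ratio of -1.79 (-2.73 to -0.91) rests on those counts, at under 10 CPM in both pools, and was -3.39 without KO replicate 4, which held 12 of the 16 KO counts.

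Smurf1, a ubiquitin ligase first described as acting on BMP Smads, had 10.45, 18.04 and 32.9 CPM in KO libraries, against 1.93, 9.26 and 18.1 CPM in WT libraries. All 9 KO libraries were above the WT median and 4 were above every WT library. The log2 ratio was 0.86 (0.70 to 1.02), 1.03 at its highest when 1 library was left out, and 1.22 under TMM scaling; it passed the 2-fold line without KO replicate 4 or WT replicate 1. Smurf2, the related ligase that pairs with Smad7, had 60.2, 83.7 and 183 CPM in KO libraries, against 106, 187 and 284 CPM in WT libraries. All 9 KO libraries were below the WT median and 5 below every WT library, with a log2 ratio of -0.81 (-0.86 to -0.76) and -0.46 relative to the median of all genes. The 2 ligases lay on opposite sides of the median of all genes.

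Without WT replicate 8, the log2 ratios of KO over WT were 0.55 for Smad1, 1.17 for Smad5, -0.48 for Smad2, 0.07 for Smad3, 0.47 for Smad4, -6.00 for Smad7, 0.94 for Smurf1 and -0.97 for Smurf2. The distance from 0 was larger without that library for 7 of these 8 genes, Smad3 turned direction, and Smad5 joined Smad7 past the 2-fold line.

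**Figure D1:**
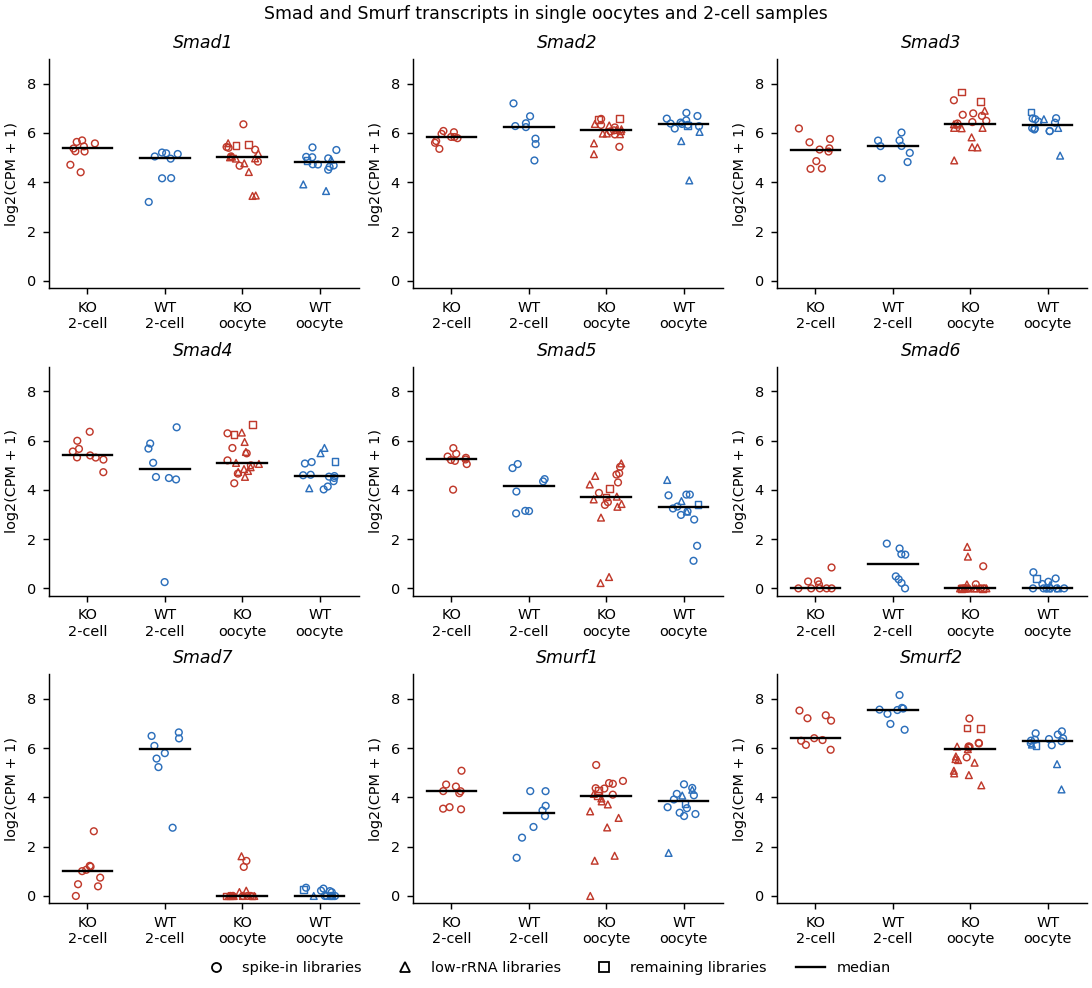
Level of each gene as log2(CPM + 1) in every single-cell library of KO 2-cell, WT 2-cell, KO oocyte and WT oocyte groups, with bars at group medians; circles are spike-in libraries, triangles low-rRNA libraries and squares the remaining ones. Smad7 is at or near 0 in all groups but WT 2-cell embryos, where it runs from 5.82 to 98.7 CPM.

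The genes whose level followed Smad7 most closely over the 17 2-cell libraries, among 7742 genes, were Tma7, Eef1akmt2, Ndufa2, Ddt and Atp1b2, each with Pearson r of 0.97 on log2(CPM + 1). Ndufa2 encodes a subunit of mitochondrial complex I, and Atp1b2 a subunit of the sodium pump. Tma7 had a median of 22.01 CPM in KO and 204 CPM in WT libraries, and Atp1b2 had 0 CPM in KO and 30.3 CPM in WT. Within the groups r was lower, at 0.56 to 0.83 within KO libraries and 0.15 to 0.56 within WT libraries without replicate 8. Over the 8 WT libraries alone, among 8177 genes, the closest were Rps12, Fzd7, Egln3, Znhit3 and Cbx3, each at 0.99. Without replicate 8 they were at 0.94 to 0.98, in libraries that had served to pick them. Within the 9 KO libraries r was 0.26 for Rps12, 0.51 for Fzd7, 0.70 for Egln3, 0.48 for Znhit3 and -0.01 for Cbx3. Fzd7, a Wnt receptor, had a median of 5.40 CPM in KO and 73.8 CPM in WT libraries. Among the family, r with Smad7 over the 17 libraries was 0.71 for Smurf2, 0.55 for Smad2, -0.61 for Smad1 and Smurf1 and -0.73 for Smad5. Depth differed between these libraries and their labels name no batch. The r over 17 libraries also includes the KO against WT difference, so these values are descriptions.

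Allele counts separated maternal from paternal transcripts in 2-cell embryos. They made up 39.5% of KO and 37.0% of WT gene counts, and their overall paternal share was 2.79% in KO (1.21 to 8.68% over libraries) and 14.6% in WT (4.00 to 24.7% over libraries). Among oocyte markers the paternal share was 0.08% in KO and 0.86% in WT, and among 2-cell markers, which the embryo transcribes, it was 31.1% in KO and 36.6% in WT. Smad7 had 30.2% paternal counts in WT (26.5 to 34.0%; 184 of 610), with paternal counts in 8 of 8 libraries and library shares of 14.3 to 63.7%. KO libraries held 23 Smad7 allele counts in all, of which 2 were paternal, which is under the minimum of 50 set for a share. Smad7 was chosen by its low total in KO, so both parental copies had to be low there, and their levels are a description. Maternal Smad7 was 0 to 1.11 CPM (median 0.31) in KO and 2.04 to 25.3 CPM (median 8.28) in WT. Paternal Smad7 was 0 to 0.21 CPM in KO and 0.39 to 9.58 CPM (median 4.75) in WT.

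Smad2 was the other gene of the family with a large paternal share. It had 5.72% paternal counts in KO (4.70 to 6.87%; 106 of 1854) and 21.6% in WT (19.5 to 23.7%; 314 of 1457). Library shares overlapped, at 0.42 to 15.0% (median 5.78%) in KO and 0 to 41.7% (median 21.0%) in WT. Smurf2 was 2.52% paternal in KO (1.94 to 3.20%) and 5.43% in WT (4.68 to 6.27%). Smad1 was 0.21% paternal in KO and 4.87% in WT, Smad4 0.49% in KO and 2.95% in WT, and Smad5 0.95% in KO and 2.68% in WT. Of the 6 shares of Smad1, Smad4 and Smad5, all but that of Smad4 in WT turned on single libraries. Smad1 in WT had 21 of its 24 paternal counts in replicate 4 and was 0.76% without it, and Smad1 in KO had its 2 paternal counts in replicate 7. Smad4 in WT had its 21 paternal counts in 5 libraries. As each library was left out, its share was 1.78 to 4.28% in WT and 0.09 to 0.64% in KO, both lowest without replicate 2. Smad5 was 0.25% in KO without replicate 8 and 1.24% in WT without replicate 4. Paternal counts of these 3 genes were few, at 2 to 24 a group, so no difference between the groups is read from them. Smad3 was 0.67% paternal in KO and 0.15% in WT, and Smurf1 0.29% in KO and 0.44% in WT. All paternal counts of Smad3 lay in 1 library a group (11 in KO replicate 4 and 2 in WT replicate 2), as did those of Smurf1 (2 in KO replicate 7 and 1 in WT replicate 6), and each share was 0 without that library. Smad6 had 8 allele counts in KO and 11 in WT and was given no share.

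**Figure D2:**
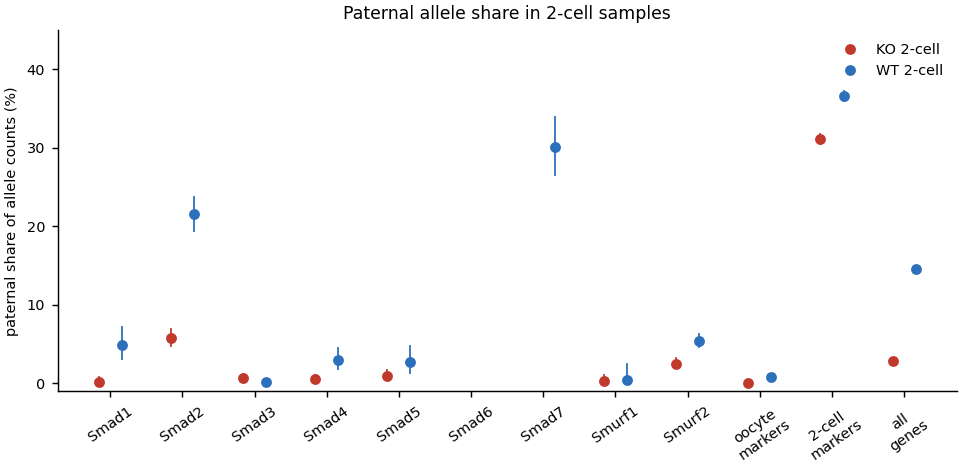
Paternal share of allele counts (percent) in KO and WT 2-cell embryos for each gene with at least 50 allele counts and for oocyte markers, 2-cell markers and all genes; bars are exact 95% intervals of counting error. Smad7 in WT (30.2%) lies near the 2-cell markers (36.6%) and Smad3 and Smurf1 near the oocyte markers.

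In MII oocytes, before the 2-cell stage, the genotypes were compared in the same way. Of 9 genes, 7 had at least 10 CPM. Of these, 0 were at least 2-fold higher in KO, against 2.04% of 6325 genes, and 0 were at least 2-fold lower, against 2.39%. With such small shares over all genes, counts of 0 of 7 show nothing particular to the family. The median log2 ratio was 0.15 for the 7 and 0.02 for all genes. All 9 genes overlapped between KO and WT oocytes, and the share of all genes that did so is not given here. These values stand beside 3 library sets in unequal shares, so the sets were also compared one by one.

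Smad7 was at the detection floor in oocytes of both genotypes, with 41 counts in KO (14 of 19 libraries at 0, highest 2.06 CPM) and 9 counts in WT (8 of 14 at 0, highest 0.261 CPM). The log2 ratio on those counts was 1.76 (0.69 to 2.98). Smad6 was as low, with 41 counts in KO and 13 in WT. Smad5 had 0.161, 12.2 and 32.7 CPM in KO oocytes, against 1.17, 8.74 and 20.1 CPM in WT oocytes. Its pooled log2 ratio of 0.62 (0.52 to 0.73) was 1.20 (1.05 to 1.36) within the spike-in set and -0.03 (-0.20 to 0.13) within the low-rRNA set. In the spike-in set it was the single gene of 7 that passed the 2-fold line upward, against 9.41% of 6375 genes and with 10 CPM reached in KO alone, and 0 passed it downward, against 3.69%. In the low-rRNA set 0 of 7 genes passed in either direction, against 1.98% upward and 2.03% downward.

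Smad4 had 18.3, 33.1 and 100 CPM in KO oocytes, against 15.2, 22.9 and 51.0 CPM in WT oocytes, and 17 of 19 KO libraries lay above the WT median. Its log2 ratio was 0.58 (0.52 to 0.64) in all libraries, 0.78 within the spike-in set and 0.05 within the low-rRNA set. Smad1 was at 0.34 in all libraries, 0.37 within the spike-in set and 0.54 within the low-rRNA set. Smad2 turned direction between the sets (-0.14 in all libraries, -0.42 and 0.50 within the sets in the same order), as did Smurf1 (0.13, 0.67 and -0.51). Smad3 was at 0.15, 0.34 and -0.05, and Smurf2 at -0.25, -0.23 and -0.08, in that order of sets.

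In WT, 3 of 8 genes were at least 2-fold higher in 2-cell embryos than in oocytes, namely Smad5, Smad7 and Smurf2, against 41.1% of 8532 genes, and 0 were at least 2-fold lower, against 14.3%. Smad5 and Smad7 were under 10 CPM in the oocyte pool and entered through the 2-cell pool alone. The median log2 ratio was 0.29 for the 8 and 0.64 for all genes. This comparison shares its WT 2-cell libraries with the genotype comparison above. TMM scaling moved the median of all genes by -0.82 and the share of higher among called genes to 47.3%, from 74.1% as CPM.

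Smad7 was at 5.82, 61.0 and 98.7 CPM in WT 2-cell libraries, against 0, 0 and 0.261 CPM in WT oocytes, and all 8 2-cell libraries lay above every oocyte. The log2 ratio was 9.30 (8.37 to 10.4), 8.66 relative to the median of all genes and 8.92 (7.87 to 10.2) against spike-in oocytes alone. Smurf2 had 106, 187 and 284 CPM in WT 2-cell libraries, against 19.04, 77.4 and 102 CPM in WT oocytes, again without overlap. The share of all genes without overlap between these stages is not given here, so nothing particular to Smad7 or Smurf2 is read from it. The log2 ratio of Smurf2 was 1.27 (1.23 to 1.32), and 0.59 under TMM scaling. Smad5 had a ratio of 1.04 (0.91 to 1.17), lost its call without WT 2-cell replicate 4 or 8 or WT oocyte replicate 6 or 9, and was 0.35 under TMM scaling. Smad3 was at -0.86 (-0.93 to -0.79), with all 8 2-cell libraries below the oocyte median, and at -1.09 without WT 2-cell replicate 8. Smad1 (0.10), Smad2 (-0.13), Smad4 (0.49) and Smurf1 (-0.44) were nearer to 0.

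In KO, 1 of 7 genes (Smad5) was at least 2-fold higher in 2-cell embryos than in oocytes, against 23.6% of 7179 genes, and 1 (Smad3) was at least 2-fold lower, against 17.4%. Smad5 had 15.1, 36.6 and 50.8 CPM in KO 2-cell libraries, against 0.161, 12.2 and 32.7 CPM in KO oocytes. All 9 2-cell libraries lay above the oocyte median and 7 above every oocyte, with a log2 ratio of 1.36 (1.28 to 1.45). The KO oocyte pool was at 14.7 CPM over all libraries and 18.2 CPM in the spike-in set, against 37.8 CPM in the KO 2-cell pool. Against spike-in oocytes alone the ratio of Smad5 was thus smaller, though still past the 2-fold line. Smad3 had 22.3, 39.2 and 71.7 CPM in KO 2-cell libraries, against 28.6, 82.5 and 202 CPM in KO oocytes. Its ratio was -1.17 (-1.23 to -1.11), or -0.98 without KO 2-cell replicate 4 and -1.38 against spike-in oocytes alone. Smurf2 was at 0.72 (0.67 to 0.77). Smad7 stayed under 10 CPM in both pools, at 1.04 CPM in KO 2-cell embryos and 0.279 CPM in KO oocytes, a log2 ratio of 1.90 (1.32 to 2.50) on 65 and 41 counts. Set side by side, the stage ratio of Smad7 was thus 1.90 in KO and 9.30 in WT. Smad7 was chosen by its low level in KO 2-cell samples, so the gap between these ratios is in part set by that choice. The difference between them was not tested, since no animals are named.

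**Figure D3:**
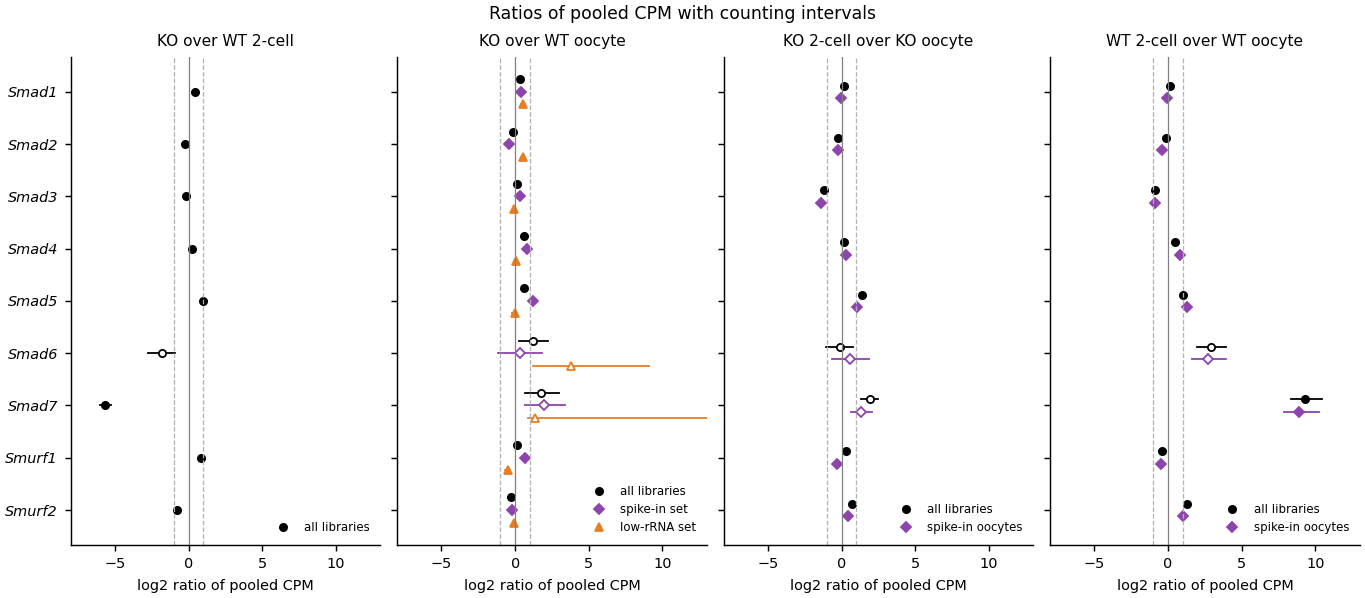
Log2 ratio of pooled CPM with exact 95% counting intervals for each gene in KO over WT 2-cell embryos, KO over WT oocytes (all, spike-in and low-rRNA libraries), KO 2-cell over KO oocytes and WT 2-cell over WT oocytes (all and spike-in oocytes); dashed lines mark 2-fold, open symbols are under 10 CPM in both pools, and the Smad7 interval of the low-rRNA set has no upper end. Smad7 stands at -5.64 between genotypes at the 2-cell stage and at 9.30 between stages in WT.

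Other genes of the pathway were read from 5 lists. In KO over WT 2-cell embryos, against the same background of 5.96% higher and 31.6% lower, 1 of 6 ligands at 10 CPM or more was higher and 0 lower, with a median log2 ratio of 0.35. Gdf9, an oocyte ligand, had medians of 896 CPM in KO and 286 CPM in WT libraries, all 9 KO libraries were above the WT median, and the ratio was 1.89 (2.80 without WT replicate 8). Of 5 receptors, 2 were lower, and their median was -0.73. The BMP type I receptor Bmpr1a had 0, 6.09 and 11.51 CPM in KO libraries, against 6.503, 45.8 and 57.8 CPM in WT libraries, a ratio of -2.88 (-3.05 to -2.70). Tgfbr1, the type I receptor for TGF-beta, had 3.63, 16.7 and 31.7 CPM in KO libraries, against 23.9, 53.4 and 110 CPM in WT libraries, a ratio of -1.92 (-2.03 to -1.81). The groups overlapped for each receptor, with all 9 KO libraries below the WT median. Bmpr1a reached 10 CPM in the WT pool alone.

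Of 13 pathway targets, 4 were at 10 CPM or more in either pool, and 2 of these were lower, both of which reached that level in WT alone; the median of the 4 was -1.62. Id1 and Id3, BMP-induced inhibitors of helix-loop-helix factors, had medians of 5.74 and 1.35 CPM in KO libraries, against 36.6 and 15.8 CPM in WT libraries. Their log2 ratios were -2.62 (-2.79 to -2.45) for Id1 and -2.78 (-3.05 to -2.52) for Id3, and all 9 KO libraries were below the WT median for both. Among 21 Smad partners and modifiers, 1 was higher and 6 lower (median -0.43), and 3 of the lower ones (Skil, Wwp2 and Lemd3) reached 10 CPM in WT alone. Skil, which encodes the Smad corepressor SnoN, had medians of 1.40 CPM in KO and 17.8 CPM in WT, with a ratio of -3.33. Tob1, an antiproliferative protein that binds Smads, and Lemd3, an inner nuclear membrane protein that binds receptor Smads, were both at -3.06, with medians of 21.8 and 3.37 CPM in KO and of 223 and 33.4 CPM in WT. The remaining calls, named after their values were seen, were the ligase gene Trim33 (-1.70), the phosphatase gene Ppm1a (-1.60) and the ligase gene Wwp2 (-1.25) lower, and the ligase gene Nedd4l (1.36) higher. Of 3 antagonists, 2 were lower, the Nodal antagonist Dand5 (-2.14) and the BMP modulator Twsg1 (-1.18, and -0.91 without WT replicate 3), and 0 were called under TMM scaling; both reached 10 CPM in WT alone.

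Between KO and WT oocytes, 0 of 6 ligands, 0 of 5 receptors and 0 of 17 partners passed the 2-fold line in either direction, against 2.04% of all genes higher and 2.39% lower, and no antagonist reached 10 CPM. Within the spike-in set 1 ligand (Gdf9, 1.94) and 1 partner (Stub1) were higher in KO, and within the low-rRNA set 1 receptor (Bmpr1a, 1.39) was. The single target at that level, reached in the KO pool alone, the TGF-beta-induced factor gene Klf10, had 0.353, 14.0 and 27.8 CPM in KO oocytes, against 0.438, 4.64 and 13.2 CPM in WT oocytes. Its ratio was 1.23 in all libraries, 1.99 within the spike-in set and 0.57 within the low-rRNA set.

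From oocyte to 2-cell embryo in WT, where 41.1% of all genes were higher and 14.3% lower, 4 targets and 3 antagonists entered through the 2-cell pool alone, so their direction follows from the filter and their ratios are given as sizes. Among these targets Id1 was at 8.14, Id2 at 6.32 and Id3 at 4.25. Of 21 partners, 12 were higher and 2 lower (6 higher and 3 lower under TMM scaling), led by Lemd3 (8.20), Tob1 (6.86) and Skil (5.03), which also entered through the 2-cell pool alone. Of 5 receptors, 2 were higher, Bmpr1a (2.84, through the 2-cell pool alone) and Tgfbr1 (2.25), and 1 lower, Bmpr1b (-1.48). Among the antagonists Bambi, a decoy receptor, was at 11.36 (9.504 to 14.41, on 2 oocyte counts), Twsg1 at 1.79 and Dand5 at 1.40. Of 6 ligands, 0 were higher and 1 lower, Gdf9 at -2.10, which was 1.60 against spike-in oocytes alone and so rests on the library set.

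Between the same stages in KO, with 23.6% of all genes higher and 17.4% lower, 1 of 2 targets at 10 CPM or more was higher, Id2 at 4.70. Of 19 partners 6 were higher and 1 lower (2 higher and 1 lower of 18 under TMM scaling), with Tob1 at 3.48, Ctdsp1 at 3.31 and Zfyve16 at -2.44. Id2, Tob1 and Ctdsp1 reached 10 CPM in the 2-cell pool alone and Zfyve16 in the oocyte pool alone. Zfyve16 encodes an endosomal protein that binds Smads, and Ctdsp1 a phosphatase that acts on them. Of 5 receptors 0 were higher and 3 were lower, namely Bmpr1b at -1.20, Bmpr2 at -1.20 (-0.98 without KO 2-cell replicate 4) and Bmpr1a at -1.01 (-0.82 without KO oocyte replicate 18). Against spike-in oocytes alone those 3 were at -0.86, -0.41 and 0.69, and 0 of 4 receptors at 10 CPM or more were called. The single antagonist, Bambi, which entered through the 2-cell pool alone, was at 7.11, and 2 of 6 ligands were higher, Bmp15 at 1.57 and Bmp6 at 1.13. Under TMM scaling 1 ligand was higher (Bmp15) and 1 lower (Gdf9). Against spike-in oocytes alone 2 were higher, Bmp15 and Gdf9, so Bmp6 lost its call in both settings.

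In the epiblast, all 9 genes were tested between IVC and E6.5 samples with edgeR's quasi-likelihood test over 11565 genes. The labels give 2 samples a group and nothing on separate cultures or embryos, so p-values measure only the spread between these samples, which may be technical. At an adjusted p under 0.05, 0 of 9 genes were lower, against 23.5% of all genes, and 0 were higher, against 12% of all genes. At the level of single genes 1, Smad2, passed at an unadjusted p under 0.05, and DESeq2 called 1, again Smad2. All 9 log2 ratios of IVC over E6.5 were below 0, which was so for 61.1% of all genes tested. The median of the 9 was -1.82, against a median of -0.85 over all genes. For 7 of the 9 genes both IVC libraries were below both E6.5 libraries, which was so for 53.7% of all genes tested.

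The IVC libraries held 10377163 and 10241401 gene counts and the E6.5 libraries 11826853 and 24047088, yet 8380 and 8990 genes were above 0 in IVC against 13101 and 13698 in E6.5. Of 7259 genes at 10 CPM or more in both E6.5 libraries, 18.2% were at 0 in exactly 1 IVC library and 8.36% in both. Of the 8 family members at that level, 5 were at 0 in exactly 1 IVC library and 0 in both, and Smad6, under that level, was at 0 in 1 as well. Summed epiblast markers were 1212 and 1128 CPM in IVC, against 4555 and 5333 CPM in E6.5, with all 8 present in every library. Summed visceral endoderm markers were 449 and 539 CPM in IVC, against 158 and 159 CPM in E6.5. These are bulk samples, in which fewer cells of a type and less RNA per cell cannot be told apart, and the part of these shifts in the values below was not tested.

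Smad2 had 24.5 and 14.3 CPM in the IVC libraries, against 92.6 and 67.2 CPM in the E6.5 libraries. It was low in both IVC libraries, with a log2 fold change of -1.77 (SE 0.60, edgeR adjusted p = 0.0988). Smad7 had 37.4 and 10.55 CPM in IVC, against 111 and 93.7 CPM in E6.5, with a log2 fold change of -1.82 (SE 0.79, edgeR adjusted p = 0.168). These 2 were the only genes of the family above 0 in both IVC libraries whose groups did not overlap. Smad1 was the one other gene above 0 in both, with 29.9 and 1.66 CPM in IVC, against 22.6 and 54.0 CPM in E6.5, and its groups overlapped.

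The other genes were each at 0 in 1 IVC library. Smad3 had 0 and 15.5 CPM in IVC, against 26.0 and 23.4 CPM in E6.5, and Smad4 had 0 and 77.3 CPM in IVC, against 163 and 201 CPM in E6.5. Smad6 had 0 and 1.46 CPM in IVC, against 7.44 and 12.48 CPM in E6.5, and Smurf1 had 0 and 26.3 CPM in IVC, against 25.4 and 27.7 CPM in E6.5. In these 4 it was IVC replicate 1 that was at 0. Smad5 had 13.3 and 0 CPM in IVC, against 67.1 and 54.1 CPM in E6.5, and Smurf2 had 8.67 and 0 CPM in IVC, against 97.0 and 92.9 CPM in E6.5; here replicate 2 was at 0. Their log2 fold changes had SEs of 2.27 to 2.57 and edgeR adjusted p-values of 0.272 to 0.864. These values turned on 1 IVC library: without IVC replicate 1, 6 of the 9 genes passed as lower (against 37.9% of all genes in that fit) and Smurf1 stood at 0.24, and without IVC replicate 2, 8 passed (against 41.8%), in fits where the remaining IVC library was assumed to vary like the E6.5 pair.

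**Figure D4:**
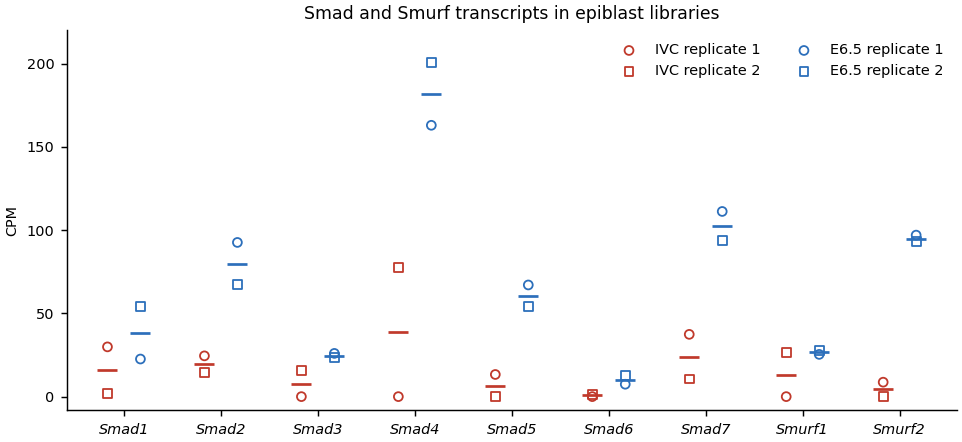
CPM of each gene in the 2 IVC and the 2 E6.5 epiblast libraries, with dashes at group means. Smad2 and Smad7 are low in both IVC libraries, while 6 genes are at 0 in exactly 1 of them.

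Among the wider lists in the epiblast, 3 of 6 ligands, 4 of 12 receptors, 2 of 7 antagonists, 6 of 25 partners and 4 of 13 targets fell in IVC, and 1, 1, 0, 2 and 2 rose. Median log2 fold changes were -4.75 for ligands, -2.39 for receptors, 0.52 for antagonists, -1.14 for partners and -2.10 for targets. Several of the genes that fell were at 0 in both IVC libraries, and their folds are bounds taken at 3 counts per IVC library. These bounds allow for counting error only, and "at least" below is meant in that sense. Of genes at 10 CPM or more in both E6.5 libraries, 18.2% were at 0 in exactly 1 IVC library. A 0 in an IVC library may therefore not mean a level under 3 counts. Among partners, the Nodal effector Foxh1 was at least 142-fold lower, Ctdsp1 at least 128-fold lower and Zfyve16 at least 65.5-fold lower. Among receptors, the activin and Nodal receptor Acvr1b was at least 107-fold lower, Bmpr1b at least 20.2-fold lower and the coreceptor Eng at least 10.0-fold lower. Among targets, Msx1 was at least 20.1-fold, Id4 at least 18.4-fold and the organizer gene Gsc at least 16.9-fold lower. The ligands Tgfb1 and Bmp7 were at least 10.6-fold and 10.2-fold lower, and the Nodal antagonist Cer1 at least 8.74-fold lower, all on levels of at most 4.49 CPM in the E6.5 libraries. Gdf3, a Nodal-related ligand, had 0.0964 and 0.195 CPM in IVC, against 3.04 and 6.70 CPM in E6.5, with a log2 fold change of -4.71 (SE 1.04, edgeR adjusted p = 0.0398). Twsg1, above 0 in every library, had 11.4 and 17.8 CPM in IVC, against 99.5 and 92.9 CPM in E6.5, with a log2 fold change of -2.46 (SE 0.53, edgeR adjusted p = 0.0398). The background for these counts is the same 12% higher and 23.5% lower. None of the calls named here held in the fits without E6.5 replicate 1 or without E6.5 replicate 2, where the adjusted p-values of edgeR were 0.448 to 0.702 and 0.561 to 0.756.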

How the data were processed

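The deposited tables hold whole-number read counts per gene, in total and by parental allele, made by the authors, per the files' values. The submitters' processing notes list STAR 2.6.0a, HTSeq 0.10.0, featureCounts 2.0.1 and the build mm9 among others, without their roles; strandedness is not given in the sources used here. ERCC rows were left out of gene totals. Oocyte tables were not split by allele.

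Oocyte and 2-cell libraries were pooled by group and compared as CPM, with exact conditional Poisson intervals and a call at 2-fold for genes with a pooled level of at least 10 CPM in 1 of the groups (Python 3.11.15, scipy 1.17.1). A pool at 0 was set to 3 counts. No test was run, because no label names an animal. Paternal shares needed 50 allele counts and have Clopper-Pearson intervals. Library sets were cut at 0.01% ERCC and 1% Rn45s. Epiblasts were tested with edgeR 4.0.16 (TMM, filterByExpr, quasi-likelihood, Benjamini-Hochberg adjusted p under 0.05) in R 4.3.3, with DESeq2 1.42.0 as an alternative. The scripts were tested on simulated data. Alternatives covered the scaling, the summary over libraries, the filter on low levels, the library sets and leaving out each library.

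Named pathway genes were, per list and comparison, up to 3 called genes with the largest ratios; the 5 genes most like Smad7 were named by Pearson r. The members and lists were chosen with earlier results of these data known.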

Additional observations from a re-analysis of the deposited data

Results flagged for a closer look

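The level of each gene was looked at for single libraries far from the rest in the 18 combinations of the 9 genes with KO and WT 2-cell embryos; the larger oocyte groups were not looked at in this way. Chance flags about 1 in 20 such groups, and 2 of 18 were flagged. Smad7 in KO 2-cell embryos had its highest value, 5.18 CPM, in replicate 3, with the next at 1.33 CPM. Smad6 in KO 2-cell embryos had its highest value, 0.800 CPM, in replicate 4, with the next at 0.225 CPM, and the 8 allele counts of that library were all paternal.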

How the results depend on the processing

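Members at least 2-fold higher in KO than WT 2-cell embryos numbered 0, but 2 under TMM scaling and 2 under DESeq2 size factors (Smad5, Smurf1), 1 each by the mean and the median of library CPM (Smad5), and 0 to 1 as each library was left out. Those at least 2-fold lower numbered 1 (Smad7), 2 by the median (with Smurf2), 2 with no filter (with Smad6) and 1 in every fit without a library. In oocytes, KO against WT, 0 were higher, but 2 with no filter (Smad6, Smad7) and 1 within the spike-in set (Smad5); 0 were lower throughout. From oocyte to 2-cell in WT, 3 were higher, 1 under TMM scaling and 2 to 3 without a library; 0 were lower, 2 under TMM scaling (Smad3, Smurf1), 1 under DESeq2 factors (Smad3) and 0 to 1 without a library. In KO, 1 was higher, 2 with no filter and 2 with a 1 CPM filter (Smad5, Smad7), and 1 was lower, 0 to 1 without a library. The WT paternal share of Smad7, 30.2%, ranged from 24.3% (without WT replicate 4) to 33.7%. Scaling moved the share of higher among all called genes from 15.9% to 37.1% (TMM) between genotypes at the 2-cell stage. In the epiblast, members lower numbered 0, 1 by DESeq2 and 0 to 8 without a library; members higher 0 throughout. Genes higher numbered 1389, and 612 to 2880 without a library; genes lower 2717, 631 with no filter and 118 to 5476 without a library, so that the share of all genes called moves with the members' count. Smurf1's log2 fold change ranged from -11.63 (without IVC replicate 2) to 0.24 (without IVC replicate 1). The causes were not tested.

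With the replicate number as a block, 893 genes were higher, 361 lower and 0 members called; same-numbered samples' deviations had a correlation of 0.00606, so the numbers name samples and do not pair them. No paired analysis was possible for oocytes and 2-cell embryos because their values come from no test. Low counts limit Smad6 in oocytes and 2-cell embryos, and Smad7 in oocytes and KO 2-cell embryos.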
